A study of Mus musculus with 93 samples.

Results

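The liver transcriptomes of WSB/EiJ and A/J male mice fed the same control diet (CD) were compared. WSB/EiJ is a wild-derived inbred strain and A/J a classical laboratory inbred strain, both mostly of Mus musculus domesticus descent. The comparison took every CD mouse of these strains, 6 WSB/EiJ and 5 A/J, which are 11 of the 93 mice of a series that covered 7 inbred strains on CD or western diet (WD), and all 19110 genes with enough reads. All mice of both groups were males of the plain inbred strains, housed at 30°C, the temperature at which mice need no extra heat production, from 6 weeks of age. They received CD, with 10% of its energy from fat, 17% from protein and 73% from carbohydrate, from 7 weeks of age for 17 weeks, and were killed at 24 weeks of age after a fast of 4 hours. The 5 A/J mice belonged to cohorts 2 and 3 and the 6 WSB/EiJ mice to cohorts 6 and 7, so that strain and cohort cannot be told apart in any value given here. The pair was chosen because these strains had the fewest genes that responded to diet in an earlier analysis of the same data, and the question was how far their livers differed without a dietary challenge.

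The liver makes most plasma proteins, including albumin, clotting factors, complement and protease inhibitors, and clears drugs, hormones and bile acids through cytochromes P450 (oxidation), transferases (conjugation) and carboxylesterases (hydrolysis). Many of these genes lie in tandem clusters of near-identical copies that differ in number and sequence between inbred strains. A further layer in rodents is sex: the pattern of growth hormone secretion keeps some hepatic genes high in males and others high in females. Inbred strains also carry different haplotypes of the major histocompatibility complex (MHC), whose class II genes are transcribed in antigen-presenting cells rather than in hepatocytes.

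Between 45135933 and 49843859 reads per mouse fell on genes, with 9.93 to 11.8% multimapping reads in WSB/EiJ and 8.29 to 9.22% in A/J, and 2.44 to 6.44% unmapped reads in WSB/EiJ against 1.93 to 2.52% in A/J. The RNA integrity number ranged from 7.2 to 9.7 in WSB/EiJ, with the lowest in mouse 6, and from 8.3 to 9.1 in A/J. All reads had been mapped to the C57BL/6J genome, so that a sequence that differs between the strains can lose reads in either of them. Levels are given as CPM, read counts scaled to a common library size, which carry no correction for transcript length and are compared here only between mice for the same gene. Alb, the gene of serum albumin, reached 102890 to 138570 CPM in WSB/EiJ and 154150 to 184300 CPM in A/J, and all 11 tested hepatocyte markers were above 0.1 CPM in both strains, as the liver label requires. Ddx3y, on the Y chromosome, ranged from 66.3 to 76.3 CPM in WSB/EiJ and from 55.3 to 71.8 CPM in A/J, as the label male requires.

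The 2 strains differed at 7441 of 19110 genes (38.9%) at an adjusted p below 0.05 (limma-voom), and such genes are referred to as called. Of these, 3623 (19%) were higher in WSB/EiJ and 3818 (20%) were higher in A/J. Many differences were small: 3250 called genes differed by less than 1.5-fold and the median absolute log2 fold change was 0.32 over all genes and 0.70 over called genes. At least a 2-fold difference was found for 1155 genes higher in WSB/EiJ and 1650 higher in A/J, and at least a 16-fold difference for 144 and 154 genes. Every WSB/EiJ mouse lay above every A/J mouse at 2312 genes (12.1%) and every A/J mouse lay above every WSB/EiJ mouse at 2557 genes (13.4%). These shares over all genes are the background for the counts of each gene list below. The median log2 fold change, always taken as WSB/EiJ minus A/J, was -0.01 over all genes. With cohort 6 of WSB/EiJ left out, the counts of called genes were 2216 higher in WSB/EiJ and 2061 higher in A/J, and called members of the gene lists numbered 283 in place of 457. In bulk liver, fewer cells of a type and less RNA per cell cannot be told apart.

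Set against the CD means of the other 5 strains (129S1/SvImJ, C57BL/6J, CAST/EiJ, DBA/2J and PWK/PhJ), WSB/EiJ lay outside their range and A/J inside it for 2480 of the called genes. The reverse, A/J outside and WSB/EiJ inside, held for 1422 called genes. Both strains lay outside at 708 and both inside at 2831. Over all genes tested, 4025 had WSB/EiJ alone outside and 2591 had A/J alone outside.

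**Figure D1:**
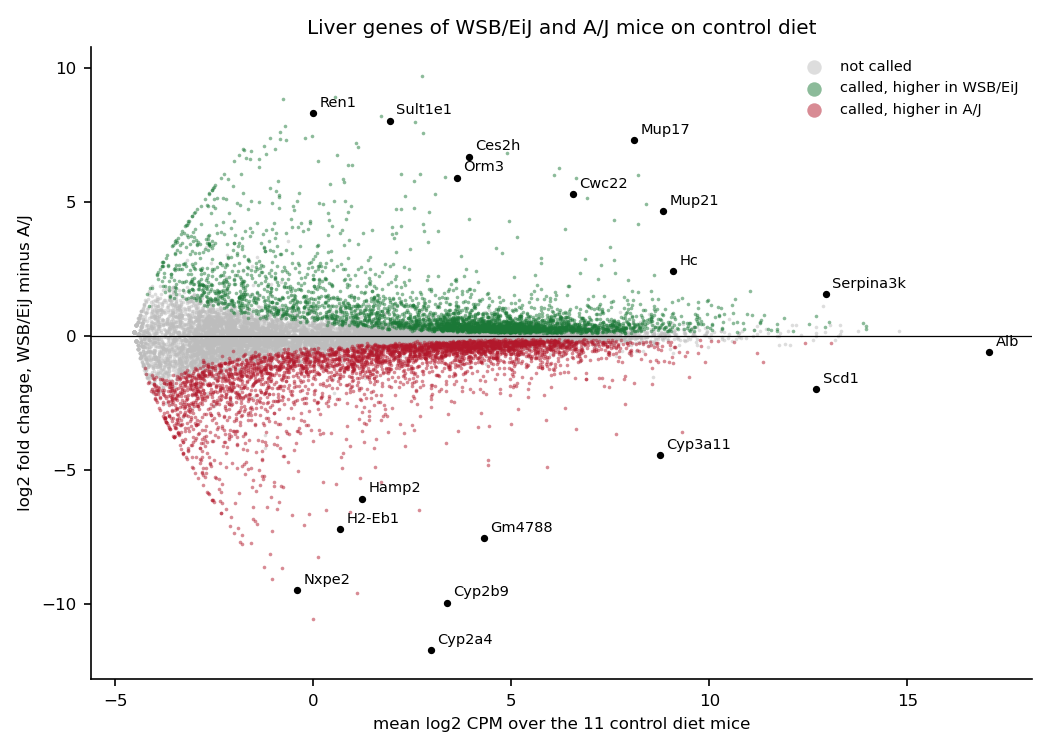
Each point is a gene, placed by its mean log2 CPM over the 11 CD mice (x axis) and its log2 fold change, WSB/EiJ minus A/J (y axis), and coloured by whether it was called (3623 green, higher in WSB/EiJ; 3818 red, higher in A/J). Genes at high and low levels were called in both directions, from Alb at the right, 1.51-fold higher in A/J, to Cyp2a4 at the bottom.

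The widest differences among genes with at least a mean log2 CPM of 1 were differences between nearly absent and abundant transcripts. Cyp2a4 (chr7:26307169-26315088, plus strand, in GRCm38 coordinates as for all genes here), a steroid hydroxylase known for higher expression in female liver, held 341, 364, 483, 1131 and 1180 CPM in the 5 A/J mice. In the 6 WSB/EiJ mice its lowest value was 0.052, the median 0.186 and the highest 0.33 CPM (log2 fold change -11.73 ± 2.35 (SE), adjusted p = 2.74e-05). The groups were far from overlapping, and the CD means of the other 5 strains spanned 1.74 to 1389 CPM.

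Cyp2b9 (chr7:26173411-26210661, plus strand), another P450 with female-biased expression, showed 284, 329, 343, 489 and 588 CPM in A/J. WSB/EiJ mice ranged from 0 to 21.5 CPM with a median of 0.285 (log2 fold change -9.95 ± 1.57 (SE), adjusted p = 1.67e-07). A single WSB/EiJ mouse held the 21.5 CPM and the other 5 were near 0. Without that mouse, replicate 6, the log2 fold change was -11.14, and without replicate 1 it was -8.99. Hamp2 (chr7:30922372-30924681, minus strand), a paralogue of the iron hormone hepcidin that is also female-biased, held 13.3, 14.3, 21.6, 25.4 and 50.8 CPM in A/J and 0.262 to 0.442 CPM, median 0.283, in WSB/EiJ (log2 fold change -6.07 ± 0.99 (SE), adjusted p = 4.38e-07). The groups did not overlap for any of these 3 genes.

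In the other direction, Sult1e1 (chr5:87575969-87591594, minus strand), the oestrogen sulfotransferase, held 0.0667, 0.109, 0.208, 0.229 and 0.259 CPM in A/J against a lowest, median and highest value of 27.6, 35.9 and 108 CPM in WSB/EiJ (log2 fold change 8.05 ± 0.99 (SE), adjusted p = 1.18e-10). The CD means of the other 5 strains were 0.118 to 0.532 CPM, so that WSB/EiJ stood apart from all 6 others. Fam107a, an actin-associated protein, had the same layout, with 0.0222 to 0.261 CPM in A/J, 8.88 to 41.2 CPM in WSB/EiJ and 0.13 to 0.972 CPM elsewhere (adjusted p = 1.82e-08). Col5a2 (chr1:45374321-45503282, minus strand), a fibrillar collagen chain, held 1.93, 2.24, 2.27, 2.29 and 2.35 CPM in A/J and 103, 268 and 383 CPM at the lowest, median and highest of WSB/EiJ (log2 fold change 6.82 ± 0.54 (SE), adjusted p = 3.60e-19).

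Cwc22 (chr2:77881159-77946375, minus strand), a splicing factor gene that lies in a segment known to be amplified in WSB/EiJ, was chosen after its values were seen. It held 11.6, 11.7, 11.9, 13.5 and 15.3 CPM in A/J and 441 to 533 CPM, median 507, in WSB/EiJ, a 39.1-fold difference with little spread in either strain (log2 fold change 5.29 ± 0.09 (SE), adjusted p = 5.00e-65). The other 5 strains stayed between 8.78 and 14.3 CPM.

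Some genes had reads almost only in a single strain of the pair. Whether such a gene was silent in the other strain or its reads failed to map was not tested. Nxpe2, of unknown function in liver, held 12.7, 15.5, 17.8, 17.8 and 19.4 CPM in A/J and at most 0.0523 CPM in WSB/EiJ (adjusted p = 3.41e-08), while the other 5 strains held 22.2 to 36.8 CPM. Capn3, a calcium-dependent protease best known from muscle, held 6.02, 6.54, 6.56, 6.98 and 7.05 CPM in A/J and at most 0.13 CPM in WSB/EiJ (adjusted p = 2.76e-20). Ren1, the renin gene, showed the opposite, with 0, 0, 0.0431, 0.0434 and 0.0458 CPM in A/J and 5.03 to 39.7 CPM in WSB/EiJ (adjusted p = 1.52e-05), although only 1 WSB/EiJ mouse was at 39.7 and the median was 5.99. No fold change is given for these 3 genes because the lower strain had next to no reads.

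**Figure D2:**
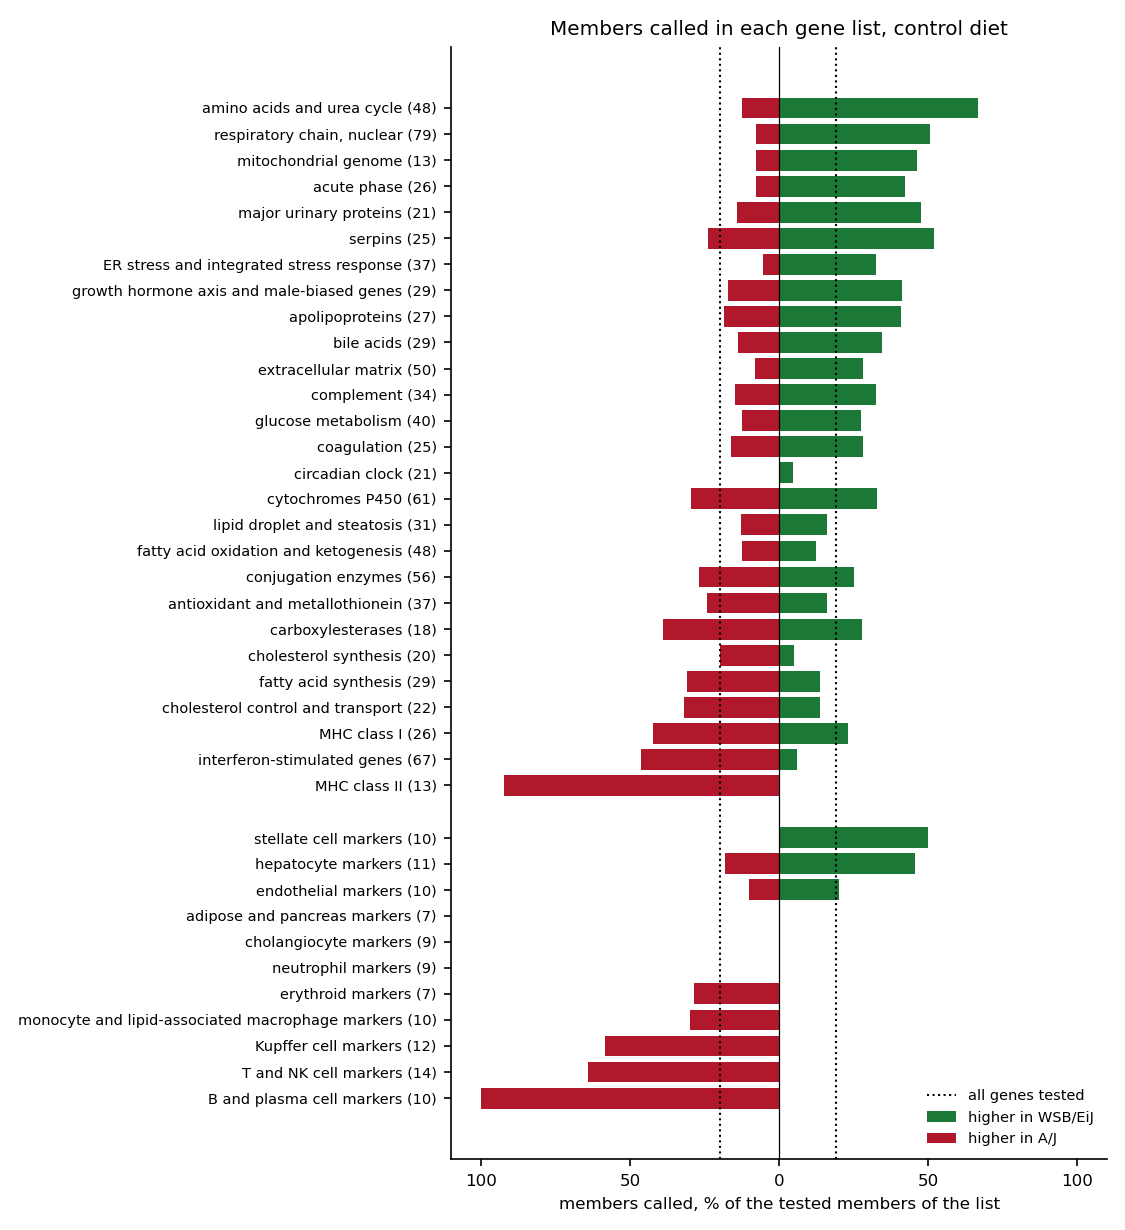
Bars give the share of the tested members of each gene list (number in brackets) that were called higher in WSB/EiJ (green, to the right) or higher in A/J (red, to the left), and dotted lines mark the same shares over all genes tested, 19% and 20%. Amino acid and urea cycle genes (32 of 48) reached furthest to the right among functional lists, and MHC class II genes (12 of 13) furthest to the left.

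Cytochromes P450 were split between the strains. Of 61 tested, 20 were higher in WSB/EiJ and 18 higher in A/J, with a median log2 fold change of 0.06 and a median absolute log2 fold change of 1.27, against 0.32 over all genes. The share called was 62.3%, against 38.9% of all genes. Without cohort 3 of A/J, 25 were called in place of 38. Cyp3a11 (chr5:145854426-145879964, minus strand), a major enzyme of drug and bile acid hydroxylation, held 1692, 1839, 2279, 2831 and 3216 CPM in A/J and 70.7, 99.8 and 209 CPM at the lowest, median and highest of WSB/EiJ, a 21.7-fold difference (log2 fold change -4.44 ± 0.27 (SE), adjusted p = 8.91e-26). The CD means of the other 5 strains, 224 to 4622 CPM, were all above the highest WSB/EiJ mouse. Cyp3a13, of the same subfamily, went the other way, with 33 to 46.9 CPM in A/J and 214 to 411 CPM in WSB/EiJ (log2 fold change 2.88 ± 0.16 (SE), adjusted p = 1.19e-28).

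Members of the Cyp2c subfamily, which oxidise fatty acids and drugs, also moved apart. Cyp2c39 held 279.6 to 574 CPM in A/J but 0.961 to 127 CPM, median 16.9, in WSB/EiJ (log2 fold change -4.90 ± 0.55 (SE), adjusted p = 4.60e-12), and Cyp2c38 held 90.4 to 213 against 0.234 to 59 CPM (log2 fold change -4.83 ± 0.51 (SE), adjusted p = 3.94e-13). Neither gene overlapped between the strains, but WSB/EiJ mice themselves were widely spread. Their log2 fold changes were -4.18 and -4.01 without WSB/EiJ replicate 1, and -5.57 and -5.58 without replicate 6. Cyp2c23, an arachidonic acid epoxygenase, was 10-fold higher in WSB/EiJ, with 423 to 585 CPM against 43.8 to 62.4 CPM (adjusted p = 6.58e-35). Cyp4a14, a fatty acid omega-hydroxylase, was higher in A/J, at 528 to 1202 against 7.42 to 405 CPM (log2 fold change -3.66 ± 0.98 (SE), adjusted p = 0.0016), and its log2 fold change was -3.04 without WSB/EiJ replicate 5. Cyp3a11, Cyp3a13, Cyp2c23 and Cyp4a14 were chosen after their values were seen.

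Conjugation enzymes were likewise divided, with 14 of 56 higher in WSB/EiJ and 15 higher in A/J (median log2 fold change -0.14). The share called was 51.8%, against 38.9% of all genes. Ugt3a2, a glycosyltransferase, held 352, 359.6, 373, 376 and 389 CPM in A/J and 30.9 to 36.6 CPM in WSB/EiJ (log2 fold change -3.47 ± 0.11 (SE), adjusted p = 1.38e-44). Values within each strain were tight, and the other strains ranged from 29.2 to 351 CPM. Gstp1, a glutathione transferase known for higher expression in males, was 3.24-fold higher in WSB/EiJ, where the mice spread from 241 to 1211 CPM against 165 to 215 CPM in A/J (adjusted p = 4.74e-07). Nat8, an acetyltransferase of the mercapturate pathway, was 4.87-fold higher in WSB/EiJ at low levels, 2.94 to 7.52 CPM against 0.667 to 1.21 CPM (adjusted p = 8.30e-07).

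Carboxylesterases, which hydrolyse drugs and lipid esters, were also split, with 7 of 18 higher in A/J and 5 higher in WSB/EiJ (median log2 fold change -0.63). Over all genes these shares were 20% and 19%. Without cohort 3 of A/J, 7 were called in place of 12. Ces2h (chr8:105000853-105021178, plus strand) held 0.734, 0.869, 1.38, 1.59 and 1.69 CPM in A/J and 115, 121 and 143 CPM at the lowest, median and highest of WSB/EiJ (log2 fold change 6.70 ± 0.19 (SE), adjusted p = 3.16e-49). Ces1g, an esterase that affects lipoprotein secretion, was 6.38-fold higher in A/J (214, 218, 219.6, 222 and 255 CPM) than in WSB/EiJ (20.1 to 55.6 CPM, adjusted p = 3.21e-13). Ces2e was 2.59-fold higher in A/J (adjusted p = 9.66e-12), and Ces3b, which acts on stored triglyceride, 2.44-fold higher in WSB/EiJ (adjusted p = 0.00266). The Ces3b call was lost without cohort 6 of WSB/EiJ (adjusted p = 0.105) and without cohort 3 of A/J (adjusted p = 0.0859), either of which leaves 2 mice in that strain. P450, transferase and esterase genes have close paralogues, and how reads were divided among copies could not be checked from counts.

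Genes of growth hormone signalling and genes with sex-biased liver expression were called in 17 of 29 cases (58.6%, against 38.9% of all genes). Of these calls, 12 were higher in WSB/EiJ and 5 higher in A/J, with a median log2 fold change of 0.45 over the list against -0.01 over all genes. The list includes female-biased genes such as Cux2, so these counts do not measure male-biased genes alone. In place of 17, 11 members were called without cohort 6 of WSB/EiJ and 11 without cohort 3 of A/J. Among male-biased genes, Cyp7b1, an oxysterol hydroxylase, held 73.8, 94.7, 122, 126 and 162 CPM in A/J and 231, 479.8 and 956 CPM at the lowest, median and highest of WSB/EiJ (log2 fold change 2.09 ± 0.39 (SE), adjusted p = 8.54e-06). Elovl3, a fatty acid elongase, was 4.36-fold higher in WSB/EiJ, at 143 to 504 against 35.7 to 126 CPM (adjusted p = 0.00521), a call lost without cohort 6 (adjusted p = 0.148) or cohort 3 (adjusted p = 0.248). Igf1, the hormone that the liver releases under growth hormone, was 1.41-fold higher in WSB/EiJ, 746 to 944 against 519 to 705 CPM (adjusted p = 0.00132). For each of these 3 genes the strains did not overlap.

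Cux2, a repressor of male-biased genes that is itself female-biased, was higher in the A/J males. They held 4.46, 6.89, 7.69, 34.6 and 56.8 CPM, with 2 mice far above the other 3, while WSB/EiJ held 0.402 to 1.22 CPM and the other 5 strains 0.761 to 1.74 CPM (log2 fold change -4.16 ± 0.67 (SE), adjusted p = 2.86e-07). Prlr, the prolactin receptor, another female-biased gene, had a median of 223 CPM in A/J and 92.8 CPM in WSB/EiJ with overlapping ranges (log2 fold change -1.58 ± 0.40 (SE), adjusted p = 0.000737). The log2 fold change of Prlr was -0.59 without cohort 6 of WSB/EiJ (adjusted p = 0.399) and -0.89 without the 2 WSB/EiJ mice with most unmapped reads (adjusted p = 0.059). Igf1 and Prlr were chosen after their values were seen.

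The major urinary proteins (MUPs), small lipocalins that males excrete in urine as carriers of pheromones, differed in both directions on CD. Of 21 tested Mup genes, 10 were called higher in WSB/EiJ, 3 higher in A/J and 8 were not called, with a median log2 fold change of 3.18. On WD, 16 were higher in WSB/EiJ and 0 higher in A/J. The 13 calls on CD became 6 when at least 10 counts were required in each of the 11 mice, and 7 without cohort 3 of A/J. Mup17 (chr4:61591929-61595871, minus strand) held 12.1, 17.3, 17.8, 18.8 and 22.4 CPM in A/J and 1394, 2797 and 4487 CPM at the lowest, median and highest of WSB/EiJ (log2 fold change 7.30 ± 0.44 (SE), adjusted p = 5.73e-26). Mup20, which codes for the male attractant darcin, held 28.8, 29.9, 42.1, 42.5 and 48.6 CPM in A/J and 333 to 2502 CPM, median 656, in WSB/EiJ (log2 fold change 4.32 ± 0.38 (SE), adjusted p = 1.81e-16). Mup21 went from 37.4 to 175 CPM in A/J to 1466 to 2526 CPM in WSB/EiJ (log2 fold change 4.68 ± 0.61 (SE), adjusted p = 5.74e-10). No Mup gene had all A/J mice above all WSB/EiJ mice, against 13.4% of all genes. All WSB/EiJ mice lay above all A/J mice at 11 of 21, against 12.1% of all genes. The genes of this cluster are nearly identical, so the level of each is uncertain.

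Complement genes were called in 16 of 34 cases, 11 higher in WSB/EiJ and 5 higher in A/J (median log2 fold change 0.08). The share called was 47.1%, against 38.9% of all genes. In place of 16, 9 were called without cohort 6 of WSB/EiJ and 10 without cohort 3 of A/J. Hc (chr2:34983331-35061438, minus strand), which codes for complement C5, the protein that starts the membrane attack complex and that A/J is known to lack in plasma, held 185, 199.7, 227, 237 and 241 CPM in A/J and 866, 1179 and 1435 CPM at the lowest, median and highest of WSB/EiJ (log2 fold change 2.43 ± 0.12 (SE), adjusted p = 5.61e-31). A/J was below the CD means of all other strains, which ranged from 349 to 989.6 CPM. C6, the next component of the same complex and a male-biased gene, held 43.3, 48.6, 74.4, 80 and 94.5 CPM in A/J and 312 to 738 CPM in WSB/EiJ, a 7.2-fold difference (log2 fold change 2.85 ± 0.24 (SE), adjusted p = 2.98e-17).

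Cfhr3 and Gm4788, of the factor H-related cluster on chromosome 1, were higher in A/J. Cfhr3 held 16.7, 16.9, 18.5, 19.5 and 20.4 CPM in A/J and 0.456 to 0.945 CPM in WSB/EiJ (log2 fold change -4.90 ± 0.26 (SE), adjusted p = 2.53e-29). Gm4788 (chr1:139697623-139781243, minus strand), a gene of the same family, held 335 to 345 CPM in A/J and 1.69 to 2.17 CPM in WSB/EiJ (log2 fold change -7.55 ± 0.16 (SE), adjusted p = 1.11e-58). The spread within strains was small beside these differences, but reads of one copy can be placed on another.

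Coagulation genes showed small differences, with 7 of 25 higher in WSB/EiJ and 4 higher in A/J (median log2 fold change 0.18). The share called was 44%, against 38.9% of all genes. F12, the factor that starts contact activation, was 1.69-fold higher in WSB/EiJ, 436 to 517 against 246 to 291 CPM (adjusted p = 2.71e-17). F9, the factor that is missing in haemophilia B, was 1.37-fold higher, 321 to 347 against 229.6 to 249 CPM (adjusted p = 2.33e-08).

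Acute phase genes, whose products rise in plasma during inflammation, were higher in WSB/EiJ at 11 of 26 and higher in A/J at 2 (median log2 fold change 0.42). Over all genes these shares were 19% and 20%. In place of 13 called members, 4 were called without cohort 6 of WSB/EiJ and 8 without cohort 3 of A/J. Orm3, an orosomucoid, held 0.912, 1.21, 1.43, 1.51 and 1.53 CPM in A/J and 56.6 to 96.8 CPM in WSB/EiJ, a 60.3-fold difference (log2 fold change 5.91 ± 0.71 (SE), adjusted p = 4.03e-11). Saa1 and Saa2, the serum amyloid A genes, were called higher in WSB/EiJ with a wide spread. Saa1 held 14.4, 14.7, 18, 19.4 and 23.8 CPM in A/J and 26.2, 114 and 2242 CPM at the lowest, median and highest of WSB/EiJ (log2 fold change 2.93 ± 0.83 (SE), adjusted p = 0.00277). The highest value came from replicate 3, which was also the highest for Saa2 at 1206 CPM, and without it the log2 fold changes were 2.12 for Saa1 (adjusted p = 0.0284) and 2.45 for Saa2 (adjusted p = 0.0332), against 2.93 and 3.28 with it. Without cohort 6 of WSB/EiJ neither was called (log2 fold changes 0.69 and 1.03, adjusted p = 0.713 and 0.626), nor without cohort 3 of A/J (2.85 and 3.19, adjusted p = 0.065 and 0.1).

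Serpins, the protease inhibitors of plasma, were called in 19 of 25 cases, 13 higher in WSB/EiJ and 6 higher in A/J (median log2 fold change 0.38). The share called was 76%, against 38.9% of all genes. Serpina3c held 0.261, 0.267, 0.32, 0.393 and 0.69 CPM in A/J and 62.1 to 89.3 CPM in WSB/EiJ (log2 fold change 7.57 ± 0.52 (SE), adjusted p = 2.73e-22). Serpina3k, an abundant antichymotrypsin-like serpin chosen after its values were seen, was 2.94-fold higher in WSB/EiJ, 10147 to 16260 against 3278 to 5592 CPM (adjusted p = 2.33e-09). Serpina1e, a copy of alpha-1-antitrypsin, went the other way, with 992, 1512, 2519, 3691 and 6463 CPM in A/J and 157, 213 and 239 CPM at the lowest, median and highest of WSB/EiJ (log2 fold change -3.57 ± 0.70 (SE), adjusted p = 1.78e-05). A/J mice spread over several-fold for Serpina1e and still did not overlap WSB/EiJ.

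**Figure D3:**
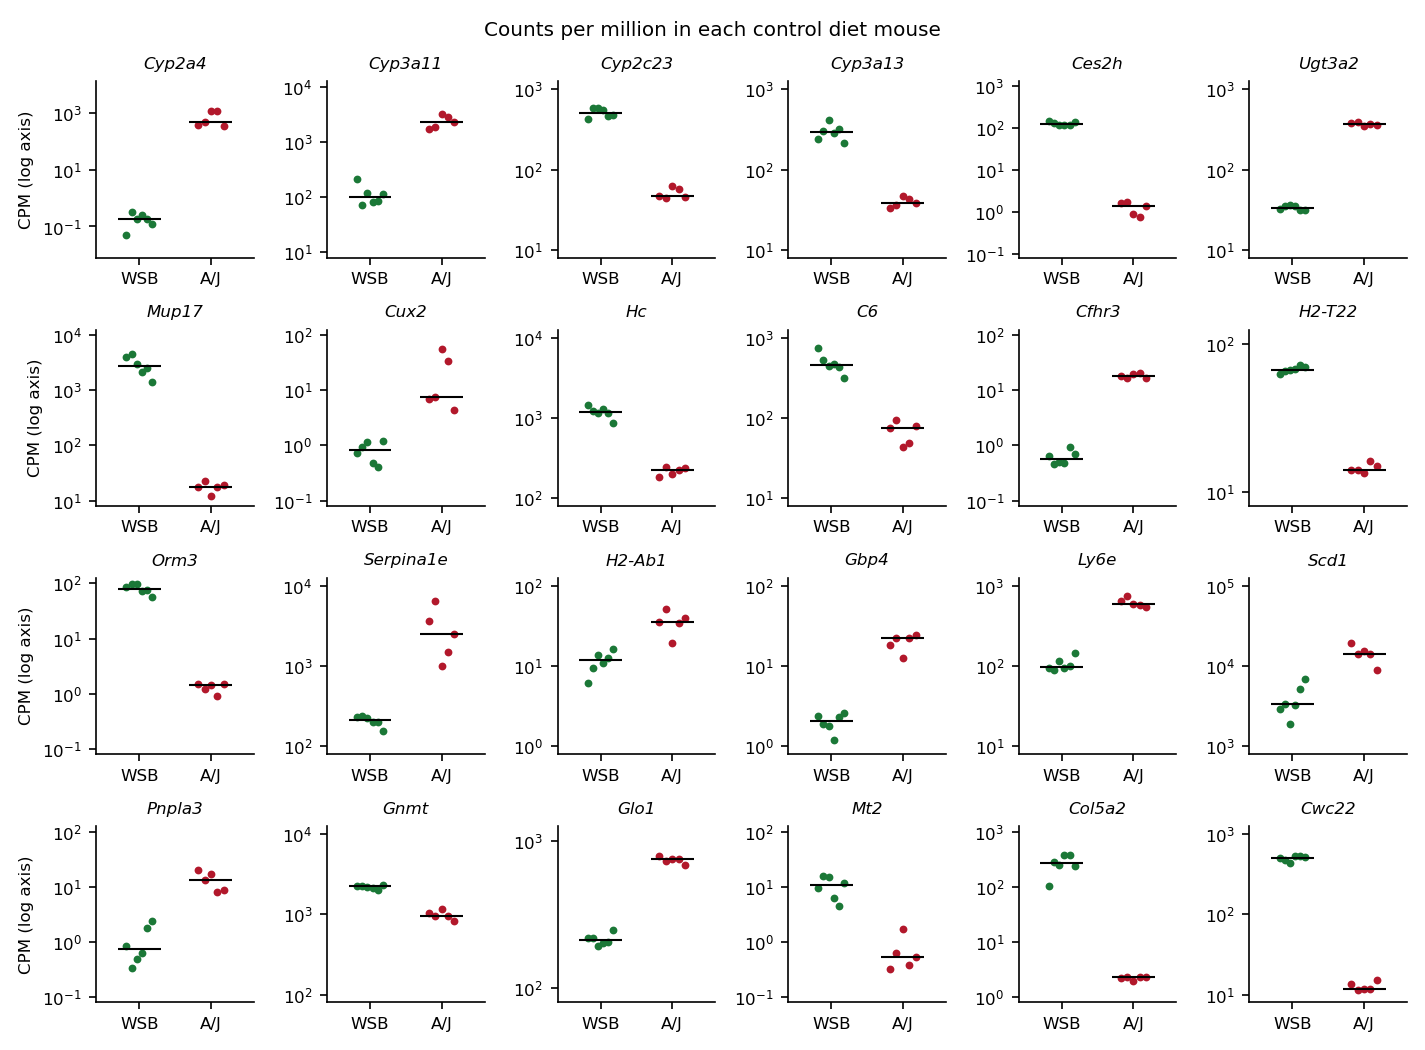
CPM of 24 genes in each CD mouse on log axes that differ between panels, with 6 green points for WSB/EiJ, 5 red points for A/J and a line at the median. In no panel do the strains overlap, because the genes were chosen by a rule that required this or after their values were seen. Over all genes tested, 12.1% had all WSB/EiJ mice above all A/J mice and 13.4% the reverse. Within-strain spread ranges from narrow (Gnmt, 2025 to 2303 CPM in WSB/EiJ) to wide (Cux2, 4.46 to 56.8 CPM in A/J).

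MHC class II genes, which present peptides to T cells, were lower in WSB/EiJ. Of 13 tested, 12 were called higher in A/J, against 20% of all genes, with a median log2 fold change of -1.47. All A/J mice lay above all WSB/EiJ mice at 9 of the 13, against 13.4% of all genes. H2-Ab1, a beta chain, held 19.7, 34.1, 35.7, 39.7 and 50.8 CPM in A/J and 6.08, 11.8 and 16.2 CPM at the lowest, median and highest of WSB/EiJ (log2 fold change -1.64 ± 0.33 (SE), adjusted p = 2.57e-05). Cd74, the invariant chain that guides class II molecules and does not bear the strain-specific peptide groove, was 2.71-fold higher in A/J, 70.7 to 159 against 26.7 to 57.1 CPM (adjusted p = 3.88e-05). H2-Aa, an alpha chain, was 2.52-fold higher with a slight overlap between the strains (adjusted p = 0.000139). H2-Eb1 (chr17:34305867-34316674, plus strand) differed far more, at 11.5, 21.6, 23.8, 25.2 and 32.6 CPM in A/J and 0.052 to 0.203 CPM in WSB/EiJ (adjusted p = 2.31e-08). Without cohort 6 of WSB/EiJ, 7 class II genes were called, and H2-Aa was not (log2 fold change -1.01, adjusted p = 0.067). H2-Aa and H2-Eb1 were chosen after their values were seen.

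MHC class I genes differed in both directions, with 6 of 26 higher in WSB/EiJ and 11 higher in A/J (median log2 fold change -0.22). The share called was 65.4%, against 38.9% of all genes. H2-T22 held 13.4, 14.1, 14.1, 14.9 and 16.1 CPM in A/J and 62.9 to 72 CPM in WSB/EiJ (log2 fold change 2.22 ± 0.12 (SE), adjusted p = 4.39e-28), and H2-T23, the non-classical class I gene that codes for Qa-1, was 3.69-fold higher in WSB/EiJ (adjusted p = 1.56e-23). H2-T10, a close relative of H2-T22, was 5.54-fold higher in A/J, 25.5 to 32.6 against 4.68 to 6.2 CPM (adjusted p = 8.08e-24). Of the classical genes, H2-D1 was 3.33-fold higher in A/J without overlap (adjusted p = 6.03e-25) and H2-K1 1.31-fold higher with overlap (adjusted p = 0.00774), the latter call lost without cohort 6 (adjusted p = 0.195) or cohort 2 (adjusted p = 0.112). B2m, the light chain that class I molecules share, had a median of 1676 CPM in A/J and 1754 CPM in WSB/EiJ (log2 fold change 0.05 ± 0.09 (SE), adjusted p = 0.719). H2-D1, H2-K1 and B2m were chosen after their values were seen. MHC genes are polymorphic, and reads from a haplotype unlike that of C57BL/6J can fail to map, so that level and mapping cannot be told apart for them.

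Interferon-stimulated genes were called in 35 of 67 cases, with a median log2 fold change of -0.66. Of the 67, 31 were higher in A/J and 4 higher in WSB/EiJ, against 20% and 19% of all genes. Every A/J mouse lay above every WSB/EiJ mouse at 28 of the 67, against 13.4% of all genes. Many interferon-stimulated genes carry in their promoters the interferon-stimulated response element, to which STAT and IRF factors bind. Many code for guanylate-binding proteins (GBPs) or immunity-related GTPases that act on intracellular pathogens. A search for the core of this element, the letters GAAA repeated after any 2 bases, on both strands of the 300 bases around the gene start (250 before to 50 after; C57BL/6J reference, GRCm38.p6, RefSeq) found a match in 11 of the 19 genes higher in A/J that had a promoter in the table (57.9%) and in 16 of 24 of those not called (66.7%). Of the 4 genes higher in WSB/EiJ, 2 had a match (50%). Over all genes tested the share was 503 of 12646 (3.98%). A match is a description of the reference letters and not a bound site, and the WSB/EiJ and A/J sequences were not read here. The windows of 3 genes higher in A/J and of Ifit1, which was not called, show what such a match looks like, with the matched letters in capitals.
Gbp2b, chr3:142594700-142594729, minus strand: tgataaagaaGAAAGTGAAAttagaagtac
Igtp, chr11:58199512-58199541, plus strand: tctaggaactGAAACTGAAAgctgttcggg
Isg15, chr4:156200877-156200906, minus strand: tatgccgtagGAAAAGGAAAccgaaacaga
Ifit1, chr19:34640794-34640823, minus strand: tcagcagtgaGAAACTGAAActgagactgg

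Gbp2b, an interferon-inducible GBP, held 6.17, 10.3, 12.4, 12.6 and 13 CPM in A/J and 0.416 to 1.13 CPM in WSB/EiJ (log2 fold change -3.94 ± 0.69 (SE), adjusted p = 1.96e-06). Gbp4 held 12.6, 18.3, 22.2, 22.3 and 24.6 CPM in A/J and 1.21 to 2.58 CPM in WSB/EiJ (log2 fold change -3.30 ± 0.36 (SE), adjusted p = 1.95e-12), and Gbp10 was 11.5-fold higher in A/J (adjusted p = 5.20e-07). Both overlap or neighbour close copies of the GBP cluster. Ly6e, a membrane protein that restricts virus entry, held 538, 577, 593, 651 and 752 CPM in A/J and 89.9, 98.5 and 145 CPM at the lowest, median and highest of WSB/EiJ (log2 fold change -2.55 ± 0.19 (SE), adjusted p = 4.73e-21). Other strains spanned 99.6 to 803 CPM for Ly6e.

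Other widely used interferon targets differed less than Gbp2b and Gbp4. Igtp, an immunity-related GTPase, was 2.87-fold higher in A/J (adjusted p = 9.43e-05) and Isg15, a ubiquitin-like modifier, 2.44-fold higher (adjusted p = 0.00145). Ifit1, a classical type I interferon target, held 4.21 to 11.5 CPM in A/J and 2.91 to 11.2 CPM in WSB/EiJ (log2 fold change -0.37 ± 0.41 (SE), adjusted p = 0.504). Igtp, Isg15 and Ifit1 were chosen after their values were seen.

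Markers of B and plasma cells, and most of those tested for T and NK cells and Kupffer cells, were lower in WSB/EiJ, as were the class II genes. All 10 B and plasma cell markers were called higher in A/J (median log2 fold change -2.23), as were 9 of 14 T and NK cell markers (median -1.72), 7 of 12 Kupffer cell markers (median -0.77) and 3 of 10 monocyte and lipid-associated macrophage markers (median -0.55), against 20% of all genes. None of the 9 neutrophil markers was called (median -0.60), but edgeR called 1 and DESeq2 2. Without cohort 6 of WSB/EiJ, 4 T and NK cell, 4 Kupffer cell and 1 monocyte and lipid-associated macrophage markers were called. For T and NK cells, 7 of 14 markers had a mean below 0.1 CPM in WSB/EiJ and 2 of 14 in A/J, whereas all but 1 of the B and plasma cell markers were above that level in both strains. When at least 10 counts were required in each of the 11 mice, 3 B and plasma cell markers and 0 T and NK cell markers were called. What part these cells had in the class II and interferon differences was not tested.

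Jchain, which joins secreted immunoglobulin chains, held 5.89, 6.29, 7.37, 7.52 and 10.3 CPM in A/J and 1.22 to 2.47 CPM in WSB/EiJ (log2 fold change -2.20 ± 0.49 (SE), adjusted p = 0.000131). Igkc, the kappa light chain constant region, was 4.1-fold higher in A/J, 13.2 to 27.9 against 3.28 to 8.16 CPM (adjusted p = 0.000759). Immunoglobulin variable segments pointed the same way, with 34 of 58 higher in A/J (median log2 fold change -2.61), although these segments differ in sequence between strains. Cd4 did not follow, at 1.48 to 2.45 CPM in A/J and 1.1 to 5.61 CPM in WSB/EiJ (log2 fold change -0.07 ± 0.32 (SE), adjusted p = 0.883).

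Among Kupffer cell genes, the resident macrophages of liver, Timd4, a receptor for dying cells, held 10.8, 11.5, 13.8, 13.9 and 16.5 CPM in A/J and 2.57 to 4.47 CPM in WSB/EiJ (log2 fold change -1.92 ± 0.46 (SE), adjusted p = 0.000424). Adgre1, which codes for the macrophage antigen F4/80, was 2.33-fold higher in A/J (adjusted p = 0.000567), and C1qc, a chain of complement C1q made by macrophages, 1.74-fold higher (adjusted p = 0.0013). Clec4f, a lectin found on Kupffer cells, was 1.67-fold higher (adjusted p = 0.00718), a call lost without cohort 6 (adjusted p = 0.146). Cd5l, a secreted macrophage protein, held 73.7 to 116 CPM in A/J and 66.2 to 100.2 CPM in WSB/EiJ (adjusted p = 0.716), so that Kupffer cell genes differed to unequal degrees. Cd9, of the monocyte and lipid-associated macrophage list, was 2.35-fold higher in A/J (adjusted p = 6.36e-06). Clec4f and Cd5l were chosen after their values were seen.

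As a single value per mouse, the mean log2 CPM of each marker list was compared by an exact two-sided permutation test over the 462 splits of the 11 mice, adjusted over the 11 lists. The score of B and plasma cell markers was 1.13 ± 0.26 (SD, n = 5) in A/J and -0.97 ± 0.29 (SD, n = 6) in WSB/EiJ (exact permutation p = 0.00216, adjusted p = 0.00595). The 2 groups did not overlap. Scores of T and NK cell markers ranged from -1.44 to -0.78 in A/J and from -3.11 to -2.45 in WSB/EiJ, a difference of -1.49, and those of Kupffer cell markers from 4.30 to 4.90 and from 3.32 to 3.72, a difference of -1.03 (both exact permutation p = 0.00216, adjusted p = 0.00595), and those of monocytes and lipid-associated macrophages by -0.60 (exact permutation p = 0.00433, adjusted p = 0.00952). Stellate cell markers differed in the other direction by 0.41 (exact permutation p = 0.00649, adjusted p = 0.0119) and hepatocyte markers by 0.16 (exact permutation p = 0.00216, adjusted p = 0.00595). Hepatocyte markers differed by -0.11 when the median over markers was used. Differences did not pass the test for endothelial (0.02), cholangiocyte (-0.23), neutrophil (-0.44), erythroid (-0.44) and adipose and pancreas markers (-0.74). The p of 0.00216 is the smallest that the 462 splits allow.

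**Figure D4:**
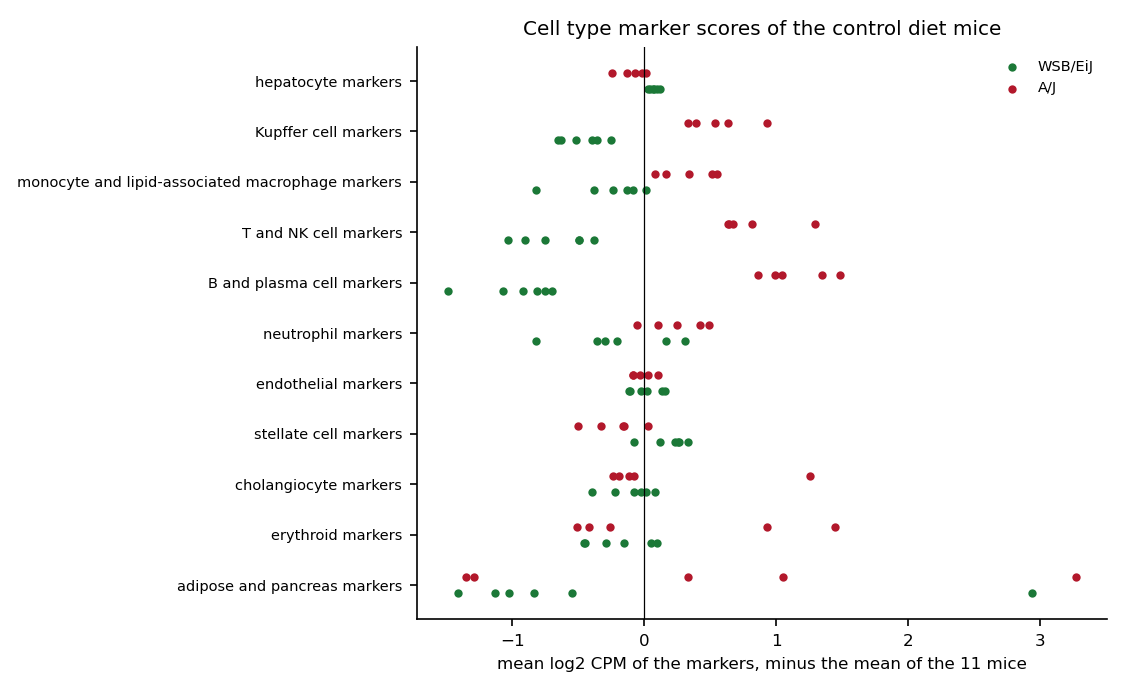
Each point is a CD mouse (green, WSB/EiJ; red, A/J), placed by the mean log2 CPM of a marker list minus the mean of the 11 mice (x axis). The strains separate fully for hepatocyte, Kupffer, monocyte, T and NK, and B and plasma cell markers, the last by a difference of -2.10, and overlap for the other lists.

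Fatty acid synthesis genes were more often higher in A/J, with 9 of 29 against 4 higher in WSB/EiJ (median log2 fold change -0.41). Over all genes these shares were 20% and 19%. Scd1 (chr19:44394455-44407879, minus strand), which inserts the double bond that makes oleate from stearate, held 8989, 13944, 14302, 15230 and 19517 CPM in A/J and 1874, 3332 and 6828 CPM at the lowest, median and highest of WSB/EiJ (log2 fold change -1.96 ± 0.31 (SE), adjusted p = 2.04e-07). The strains did not overlap for this abundant transcript, but it was not called with no filter beyond 1 count (limma-voom adjusted p = 0.714). Pnpla3, a lipid droplet hydrolase whose human counterpart carries a variant known for fatty liver, held 7.99, 8.56, 13.4, 16.7 and 20.4 CPM in A/J and 0.33 to 2.35 CPM in WSB/EiJ (log2 fold change -3.83 ± 0.92 (SE), adjusted p = 0.000466). It was not called without cohort 6 of WSB/EiJ (log2 fold change -2.60, adjusted p = 0.0999), where 4 members of the list were called in place of 13. Called members numbered 7 with no filter beyond 1 count and 8 without cohort 2 of A/J. Without the 2 WSB/EiJ mice with most unmapped reads, 6 were called. Fads1, the delta-5 desaturase, was 1.5-fold higher in A/J (adjusted p = 0.000412). Fasn, the fatty acid synthase itself, held 489 to 989.8 CPM in A/J and 305 to 932 CPM in WSB/EiJ and was not called (log2 fold change -0.62 ± 0.33 (SE), adjusted p = 0.131), but it passed without WSB/EiJ replicate 5 (log2 fold change -0.83, limma-voom adjusted p = 0.0416). Fads1 and Fasn were chosen after their values were seen.

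Cholesterol synthesis genes showed few calls, 1 of 20 higher in WSB/EiJ and 4 higher in A/J (median log2 fold change -0.34). For control and transport of cholesterol, 7 of 22 genes were higher in A/J and 3 higher in WSB/EiJ (median log2 fold change -0.19). Abcg5 and Abcg8, the subunits of the transporter that exports sterols into bile, were 1.53-fold and 1.85-fold higher in A/J (adjusted p = 0.00051 and 1.49e-05), neither with overlap, and lie head to head so that their ends overlap. Soat1, which esterifies cholesterol, was 2.2-fold higher in A/J (adjusted p = 7.99e-05).

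Lipid droplet and steatosis genes had 5 of 31 higher in WSB/EiJ and 4 higher in A/J (median log2 fold change -0.11), a share below that of all genes. Hsd17b13, a droplet enzyme, held 545, 555, 570.1, 576 and 609 CPM in A/J and 984 to 1522 CPM in WSB/EiJ (log2 fold change 1.04 ± 0.12 (SE), adjusted p = 2.44e-12). Fitm1, a droplet-forming protein, was 4.79-fold higher in WSB/EiJ at low levels (adjusted p = 0.000245). Tm6sf2, which loads lipid onto very low density lipoprotein, was 1.66-fold higher in A/J, 48.2 to 70.6 against 20.4 to 47.9 CPM (adjusted p = 9.18e-06), a call lost without cohort 6 (adjusted p = 0.108). Plin2, the coat protein of hepatocyte droplets, held 243 to 764 CPM in A/J and 265 to 739 CPM in WSB/EiJ (adjusted p = 0.841, chosen after its values were seen).

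Apolipoprotein genes and their partners had 11 of 27 higher in WSB/EiJ and 5 higher in A/J (median log2 fold change 0.12). The share called was 59.3%, against 38.9% of all genes. Without cohort 3 of A/J, 8 were called in place of 16. Apoa1, the main protein of high density lipoprotein, was 1.39-fold higher in WSB/EiJ, 16070 to 19183 against 10931 to 15420 CPM (adjusted p = 0.00019), a call lost without cohort 3 of A/J (adjusted p = 0.138). Apom, which carries sphingosine-1-phosphate, was 2.05-fold higher (adjusted p = 3.41e-08). Sort1, a sorting receptor linked to apolipoprotein B secretion, held 17.1, 20.5, 22.9, 23.2 and 23.4 CPM in A/J and 2.9 to 4.21 CPM in WSB/EiJ (log2 fold change -2.65 ± 0.26 (SE), adjusted p = 1.71e-14). Apol7a was 6.53-fold higher in A/J (adjusted p = 2.07e-16). Apob, the structural protein of very low density lipoprotein, chosen after its values were seen, overlapped between the strains (log2 fold change -0.14 ± 0.09 (SE), adjusted p = 0.209).

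Bile acid genes were called in 14 of 29 cases, 10 higher in WSB/EiJ and 4 higher in A/J (median log2 fold change -0.02). The share called was 48.3%, against 38.9% of all genes. In place of 14, 4 were called without cohort 6 of WSB/EiJ and 8 without cohort 3 of A/J. Cyp7b1, described above, was among those higher in WSB/EiJ. Abcc3, an exporter to blood, was 2.99-fold higher in A/J, 249.7 to 305 against 64.1 to 109 CPM (adjusted p = 1.08e-10). Slco1a4, an uptake carrier, was 2.31-fold higher in A/J (adjusted p = 0.000615), a call lost without cohort 6 (adjusted p = 0.108) or cohort 3 (adjusted p = 0.29). Cyp7a1, the rate-limiting enzyme of bile acid synthesis, chosen after its values were seen, spread widely in both strains, 54.3 to 345 and 24.5 to 273 CPM, and was not called (log2 fold change -0.92 ± 0.59 (SE), adjusted p = 0.221).

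Fatty acid oxidation and ketogenesis genes were called less than all genes, with 6 of 48 in each direction (median log2 fold change -0.00). Acot3, a peroxisomal thioesterase, was lower in WSB/EiJ, 0.546 to 40.7 against 46.9 to 79 CPM (log2 fold change -2.88 ± 0.72 (SE), adjusted p = 0.000781), and its log2 fold change was -2.15 without WSB/EiJ replicate 1. Without cohort 6 of WSB/EiJ it was -1.60 and not called (adjusted p = 0.176).

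Amino acid and urea cycle genes were higher in WSB/EiJ at 32 of 48 and higher in A/J at 6, against 19% and 20% of all genes, with a median log2 fold change of 0.38. In place of 38 called members, 21 were called without cohort 6 of WSB/EiJ and 23 without cohort 3 of A/J. Gnmt, the glycine methyltransferase that disposes of methyl groups, held 815, 944, 951, 1039.5 and 1159.6 CPM in A/J and 2025, 2248 and 2303 CPM at the lowest, median and highest of WSB/EiJ (log2 fold change 1.18 ± 0.14 (SE), adjusted p = 1.43e-11). Gls2, the liver glutaminase, was 2.27-fold higher in WSB/EiJ, 359 to 519.6 against 153 to 273 CPM (adjusted p = 1.27e-10). In the urea cycle, Asl, argininosuccinate lyase, was 2.02-fold higher (adjusted p = 2.75e-09) and Cps1, the entry enzyme, 1.58-fold higher (adjusted p = 0.000632), both without overlap. Hnf4a, the transcription factor that maintains hepatocyte identity, was 1.41-fold higher in WSB/EiJ as well (adjusted p = 0.00128), a call lost without cohort 6 (adjusted p = 0.19) or cohort 3 (adjusted p = 0.0676). Bhmt, which uses betaine to remethylate homocysteine, chosen after its values were seen, was 2.26-fold higher in A/J with overlap (adjusted p = 0.000418), a call lost without cohort 6 (adjusted p = 0.0512).

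Glucose metabolism genes had 11 of 40 higher in WSB/EiJ and 5 higher in A/J (median log2 fold change 0.10). The share called was 40%, against 38.9% of all genes. Irs2, the main hepatic insulin receptor substrate, held 23.3, 26.5, 29.3, 30.4 and 41.8 CPM in A/J and 50.2 to 78.1 CPM in WSB/EiJ (log2 fold change 1.09 ± 0.24 (SE), adjusted p = 0.000109). Glo1, which detoxifies methylglyoxal and lies in a segment known to be duplicated in A/J, held 679.7, 728, 754, 755 and 783 CPM in A/J and 194 to 248 CPM in WSB/EiJ (log2 fold change -1.79 ± 0.12 (SE), adjusted p = 4.30e-22). A/J and WSB/EiJ were both outside the CD means of the other 5 strains, 278 to 719.8 CPM.

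Nuclear genes of the respiratory chain were higher in WSB/EiJ at 40 of 79 and higher in A/J at 6, against 19% and 20% of all genes. The differences were small, with a median log2 fold change of 0.16. Without cohort 3 of A/J, 22 were called in place of 46. Ndufs4, a subunit of complex I, was 1.58-fold higher in A/J, 44.6 to 50.2 against 26.9 to 33.9 CPM (adjusted p = 2.94e-18). Of the 13 protein genes of the mitochondrial genome, 6 were higher in WSB/EiJ and 1 higher in A/J (median log2 fold change 0.20), and 1 in all was called without cohort 6 of WSB/EiJ. Only mt-Nd4l had all WSB/EiJ mice above all A/J mice, 3.9 to 6.18 against 0.782 to 2.08 CPM (log2 fold change 1.99 ± 0.21 (SE), adjusted p = 6.18e-13). This gene overlaps mt-Nd4, and reads in the overlap could not be assigned.

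Stress response genes differed mildly. In the endoplasmic reticulum and integrated stress response list, 37.8% of genes were called, against 38.9% of all genes. Of this list, 12 of 37 genes were higher in WSB/EiJ and 2 higher in A/J (median log2 fold change 0.28). Atf4, its central transcription factor, was 1.46-fold higher in WSB/EiJ, 93.3 to 120.2 against 65.7 to 72.4 CPM (adjusted p = 4.67e-05), whereas Psph, an enzyme of serine synthesis that ATF4 induces, was 2.3-fold higher in A/J (adjusted p = 6.39e-08). Antioxidant and metallothionein genes were split, with 6 of 37 higher in WSB/EiJ and 9 higher in A/J (median log2 fold change 0.05). The share called was 40.5%, against 38.9% of all genes. The metallothioneins, which bind zinc and copper, were both higher in WSB/EiJ. Mt2 held 0.324, 0.378, 0.539, 0.618 and 1.72 CPM in A/J and 4.56 to 15.8 CPM in WSB/EiJ (log2 fold change 3.97 ± 0.76 (SE), adjusted p = 1.28e-05). Mt1 held 41.6 to 95 CPM in A/J and 141 to 777 CPM in WSB/EiJ (log2 fold change 2.64 ± 0.56 (SE), adjusted p = 7.98e-05), and was not called without cohort 6 (adjusted p = 0.0759). Nqo1, a quinone reductase under NRF2 control, was 2.18-fold higher in WSB/EiJ (adjusted p = 0.000241).

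Extracellular matrix genes were higher in WSB/EiJ at 14 of 50 and higher in A/J at 4 (median log2 fold change 0.32). The share called was 36%, against 38.9% of all genes. Besides Col5a2, Ecm1, a stellate cell product that restrains latent TGF-beta, held 97.6, 125, 139, 139.5 and 180.1 CPM in A/J and 273 to 419.5 CPM in WSB/EiJ (log2 fold change 1.45 ± 0.15 (SE), adjusted p = 6.17e-14), and Mmp2, a gelatinase, was 2.84-fold higher at low levels (adjusted p = 0.00662), a call lost without cohort 6 (adjusted p = 0.094) or cohort 3 (adjusted p = 0.0687). Of 10 stellate cell markers, 5 were called higher in WSB/EiJ (median log2 fold change 0.37). This count was 2 without WSB/EiJ replicate 5 or A/J replicate 2, 3 without WSB/EiJ replicate 1 or A/J replicate 1, and 1 without cohort 6 of WSB/EiJ. On WD, 1 stellate cell marker was higher in each strain (median log2 fold change -0.10). What part these cells had in the matrix genes was not tested. Of 10 endothelial markers, 2 were higher in WSB/EiJ and 1 higher in A/J (median log2 fold change -0.01). Stab1, a scavenger receptor of sinusoidal endothelium, was 1.7-fold higher in WSB/EiJ (adjusted p = 1.74e-10). Of 21 circadian clock genes, 1 was called, Bhlhe41, a repressor of the core clock, which was 2.5-fold higher in WSB/EiJ, 7.98 to 16.1 against 3.85 to 5.85 CPM (adjusted p = 0.000127). With WSB/EiJ replicate 3, 4 or 6, or A/J replicate 3 or 4, left out, 2 clock genes were called.

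The strain comparison was also made in the WD mice of both strains, 6 per strain, which are other animals of the same cohorts. At adjusted p below 0.05, 8463 genes (44.3%) were called on WD, 4270 (22.3%) higher in WSB/EiJ and 4193 (21.9%) higher in A/J. Of the 7441 genes called on CD, 5752 (77.3%) were called in the same direction on WD and 13 in the opposite direction, and 7219 had the same sign. Such agreement was favoured in advance by the choice of strains with few diet responses. Of the 2805 genes with at least a 2-fold difference on CD, 2344 were also called in the same direction on WD. On WD, 11 of 13 MHC class II genes, all 10 B and plasma cell markers and 35 of 67 interferon-stimulated genes were higher in A/J, against 12, 10 and 31 on CD, and 36 of 48 amino acid and urea cycle genes were higher in WSB/EiJ, against 32 on CD. Fatty acid synthesis genes higher in A/J numbered 19 of 29 on WD against 9 of 29 on CD, and cholesterol synthesis genes 11 of 20 against 4 of 20, a change of counts that was not itself tested. Nuclear respiratory chain genes higher in WSB/EiJ numbered 23 of 79 on WD against 40 of 79 on CD.

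The test of the difference between the CD and WD comparisons called 98 genes (0.513%), of which 53 were also called on CD, and DESeq2 called 252. The strain difference was more positive on WD for 45 of them and more negative for 53. Mup12 was higher in WSB/EiJ on both diets, with 11.1, 28.1, 30.3, 51.2 and 54.7 CPM in A/J and 634 to 4051 CPM in WSB/EiJ on CD (log2 fold change 6.00 ± 0.38 (SE), adjusted p = 1.92e-24), and the difference widened on WD (change 4.27 ± 0.66 (SE), adjusted p = 1.55e-05). Serpina1e, higher in A/J on CD, had a log2 fold change of 0.91 on WD (change 4.48 ± 0.92 (SE), adjusted p = 0.00376), where A/J held 247 ± 309 CPM and WSB/EiJ 162 ± 22.4 CPM (mean ± SD, n = 6 each).

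Several genes of lipid and sterol handling stood further above WSB/EiJ in A/J on WD than on CD. Cd36, a fatty acid uptake receptor, held 20.2 to 31.5 CPM in A/J and 19.2 to 27.1 CPM in WSB/EiJ on CD. On WD, A/J held 189 ± 63.6 CPM and WSB/EiJ 39.4 ± 8.36 CPM (mean ± SD, n = 6 each; change -2.08 ± 0.34 (SE), adjusted p = 5.91e-05). Fads1, the delta-5 desaturase, went from a log2 fold change of -0.58 to -2.05 (change -1.47 ± 0.19 (SE), adjusted p = 1.72e-07). Cyp46a1, a cholesterol hydroxylase best known from brain, went from -0.18 to -2.75 (adjusted p of the change = 1.44e-06) and Slco1a4 from -1.21 to -3.38 (adjusted p of the change = 0.003). The P450 Cyp2a22 went from 0.47 to -1.86 (adjusted p of the change = 0.000315). Saa3, an amyloid A gene also made by macrophages, moved the other way, from -0.13 to 2.44 (adjusted p of the change = 0.00846), as did Cd4, from -0.07 to 1.49 (adjusted p of the change = 0.0442). Cd36, Cyp46a1, Cyp2a22 and Saa3 were chosen after their values were seen.

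**Figure D5:**
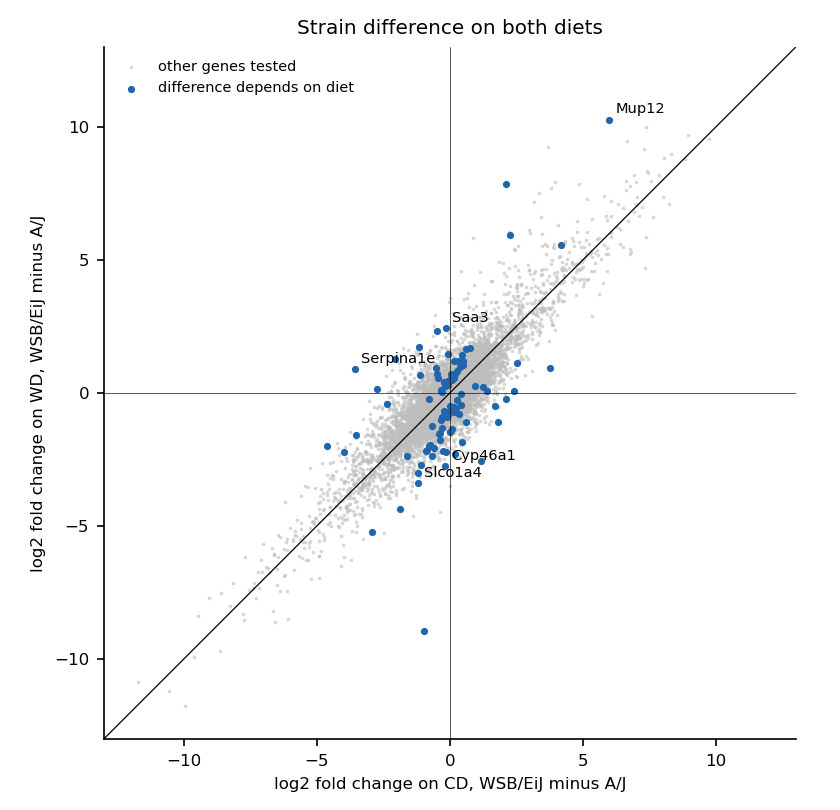
Each point is a gene, placed by its log2 fold change (WSB/EiJ minus A/J) on CD (x axis) and on WD (y axis), with the line of equality. The 98 genes whose strain difference depended on diet are blue, with Serpina1e above the line at -3.57 on CD and 0.91 on WD, and the other genes tested (grey) lie along it.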

How the data were processed

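Per the labels, liver RNA of each mouse was sequenced as its own library on a BGISEQ-500 instrument after a SMARTER mRNA-Seq kit, and reads were mapped with STAR 2.7.1a to GRCm38 (mm10), that is, to C57BL/6J for all strains. The deposited values are raw counts of reads per gene, made by the authors. The annotation release and the strand setting of the counting are not given in the sources used here, so that reads of overlapping and antisense genes cannot be told apart. Symbols and coordinates were taken from GENCODE M21 (GRCm38.p6). The 4 summary lines (unmapped, multimapping, no feature, ambiguous) were left out of the library sizes.

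After the study's own methods, limma-voom was run on TMM-scaled counts, whereas the filter and the model were chosen here. From the counts of all 93 mice, genes were kept by filterByExpr (minimum count 10), scaled by TMM (edgeR 4.0.16) and fitted by limma-voom (limma 3.58.1, R 4.3.3) with a mean for each of 14 groups. P-values of each contrast were adjusted by Benjamini-Hochberg over all 19110 genes and called below 0.05. The labels do not say whether mice shared a litter or cage. The self-test on simulated counts was run before the fit. Log2 CPM for marker scores used a prior count of 2. The alternatives were an edgeR quasi-likelihood test, DESeq2 1.42.0, other scalings and filters, the 11 mice alone, sample quality weights, RNA integrity as a covariate, cohort as a random block, and each mouse and each cohort left out. Leaving out together the 2 WSB/EiJ mice with most unmapped reads was chosen after seeing the data. No pair of libraries agreed within sampling noise.

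The strains, gene lists and marker lists were chosen with earlier results of these data known. Genes were named by a rule: up to 4 called members per list with the largest absolute log2 fold change whose strains did not overlap and whose log2 CPM averaged 1 or more, the 8 largest differences in each direction, up to 5 genes near 0 CPM in one strain and at least 5 CPM in all mice of the other, checks of sex and of Hc, and the most abundant member of a list without such a gene. Not every gene so chosen is described, some are not reported here, and genes outside the rule are said to be chosen after their values were seen.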

Additional observations from a re-analysis of the deposited data

Results flagged for a closer look

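In 16 of 230 groups of values tested, the CPM of a single CD mouse stood apart from its strain by Dixon's criterion, which chance alone meets in about 1 in 20 groups. Of these, 4 came from WSB/EiJ mouse 6, whose RNA integrity number of 7.2 was the lowest of the 11 mice, 4 from WSB/EiJ mouse 1 and 3 from A/J mouse 3. WSB/EiJ mouse 6 was far above the other WSB/EiJ mice in 3 P450 genes, with 21.5 CPM of Cyp2b9, 127 CPM of Cyp2c39 and 59 CPM of Cyp2c38. WSB/EiJ mouse 3 held the 2242 CPM of Saa1 and 1206 CPM of Saa2. Other values that stood high in WSB/EiJ were 2.17 CPM of Gm4788, 39.7 CPM of Ren1, 209 CPM of Cyp3a11, 2502 CPM of Mup20, 5.61 CPM of Cd4 and 424 CPM of Bhmt. In A/J, values stood high at 255 CPM of Ces1g and 1.72 CPM of Mt2, and low at 1.93 CPM of Col5a2, 230 CPM of F9 and 160 CPM of Abcg8.

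The difference between the strains depended on diet for 98 genes by the limma-voom test of that difference. Among the genes described, the log2 difference WSB/EiJ minus A/J was larger on WD than on CD by 4.48 for Serpina1e, 4.27 for Mup12, 2.58 for Saa3 and 1.56 for Cd4. It changed by -2.57 for Cyp46a1, -2.33 for Cyp2a22, -2.17 for Slco1a4, -2.08 for Cd36 and -1.47 for Fads1.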

How the results depend on the processing

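The counts of genes called on CD stayed within 1.5 times of 3623 (higher in WSB/EiJ) and 3818 (higher in A/J) under edgeR, DESeq2, other scalings, filters, weights and covariates, and ranged from 3218 to 3616 and from 3442 to 3732 with 1 mouse left out. Without cohort 6 of WSB/EiJ, which leaves 2 mice, they were 2216 and 2061, and without cohort 3 of A/J, which also leaves 2 mice, 2151 genes were higher in WSB/EiJ. Called members of the gene lists, 457 in the main result and 414 to 449 with 1 mouse left out, numbered 283 and 285 without these cohorts. Both settings have fewer mice. In these 2 settings, coagulation calls went from 11 to 4 and 4, and extracellular matrix calls from 18 to 7 and 9. Genes whose strain difference depended on diet numbered 98, but 252 by DESeq2 and 568 with sample quality weights, and the cause was not tested. Without the 2 WSB/EiJ mice with most unmapped reads, chosen after seeing the data, 6248 genes were called.

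Of 102 named genes called on CD, 82 were called in the same direction under every one of the 26 alternatives. With no filter beyond 1 count, Alb, Mup20, Saa1, Saa2, H2-K1 and Scd1 were not called. With the median over markers, the score difference was -0.11 for hepatocyte markers (exact permutation, adjusted p = 0.217) and 0.27 for erythroid markers (exact permutation, adjusted p = 0.0357), and with a prior count of 0.5 it was -0.66 for neutrophil markers (exact permutation, adjusted p = 0.0476). No paired analysis was possible because the labels carry no replicate numbers. Strain and cohort cannot be told apart, and genes near 0 CPM rest on few reads.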
